A study of Mus musculus with 68 samples.

Results

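The genes described here are cardiac contractile genes: Actc1, Myh6, Myh7, Myl4, Myl7, Tnnt2, Tnni1, Tnnc1 and Mybpc3, which code for proteins of the heart muscle sarcomere. They were chosen by name, with earlier results of these data known. Their expression was followed in RNA sequencing of hand-dissected mouse pharyngeal arches. Of the 10 listed genes, 9 were matched among the 21948 genes of the deposited table, and Nppa was not analysed here. All 9 passed the filter on low values. The arches came from embryos of a CBA/Ca/J x C57BL/10 background at 4 stages from E9.0 to E10.5 (E, embryonic day). Their genotype was given as wildtype or Hoxa2-/-, and no other treatment is named in the labels. PA1 and PA2 of 1 embryo were collected as separate samples. The 68 libraries come from 35 embryos, of which 33 gave both arches and 2 gave PA1 alone. Wildtype PA1 had 5, 5, 5 and 3 libraries over the stages and wildtype PA2 had 4, 4, 5 and 3. The libraries labelled Hoxa2-/- numbered 4, 5, 5 and 3 in each arch.

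PA1, the arch nearest the head, gives rise to the jaws, and PA2, the next one, to hyoid and middle ear structures. The arches lie beside the arterial pole of the heart tube, and progenitors of the second heart field in the nearby pharyngeal mesoderm add muscle to the outflow tract of the heart while the arches form. The sarcomere of heart muscle is built from thick filaments of myosin (Myh6 and Myh7 heavy chains, Myl7 and Myl4 light chains, with Mybpc3 bound along them) and thin filaments of actin (Actc1) carrying the calcium-sensing troponin complex (Tnnt2, Tnni1 and Tnnc1). Embryonic heart muscle uses several isoforms, Tnni1 and Myh7 among them, that are also used by slow skeletal muscle. In whole tissue such as this, fewer cells of a type and less RNA per cell cannot be told apart.

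Each library held between 8912251 and 20619153 reads counted to genes, and values are given in CPM (counts scaled to a common library total by the authors). The labels were checked with Hoxa2, a homeobox gene of PA2: it was at 16.8 to 147 CPM in every PA2 library and at most 0.926 CPM in every PA1 library. In PA2 it ran from 20.2 to 63.3 CPM in wildtype libraries and from 16.8 to 147 CPM in those labelled Hoxa2-/-, so the transcript was not lower under that label. The part of the gene that the allele removes is not given in the sources used here, and the groups are therefore named by their labels. Wildtype libraries of every stage but E10.0 also stood apart from all others, with Ski at 26.3 to 108 CPM against 9.28 to 22.8 CPM in the libraries labelled Hoxa2-/- and 9.52 to 15.5 CPM in wildtype at E10.0. At those 3 stages this division and the genotype label cannot be told apart. A library of wildtype PA2 at E9.0 (replicate 2) held 73800 CPM of the 9 erythroid genes examined, against 3840 to 5610 CPM in the other 3 libraries of its group. A library labelled Hoxa2-/- of PA2 at E9.0 (replicate 3) held 439 CPM of yolk sac endoderm genes, against a median of 4.92 CPM over all libraries.

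The 9 genes lie on 4 chromosomes of the GRCm38 build. Tnni1 (chr1:135779434-135810989, plus strand) and Tnnt2 (chr1:135836354-135852260, plus) are neighbours 25.4 kb apart, and Myh6 (chr14:54941921-54966927, minus) and Myh7 (chr14:54970684-54994626, minus) lie 3.76 kb apart. Tnnc1 is at chr14:31208312-31211729 (plus), Actc1 at chr2:114047282-114053548 (minus), Mybpc3 at chr2:91118144-91136516 (plus), Myl7 at chr11:5896637-5898782 (minus) and Myl4 at chr11:104550663-104595753 (plus). The 250 bases before the RefSeq start (build GRCm38.p6) are shown for 5 members as an example of the regulatory sequence of genes that moved together in these libraries. The windows of the other 4 overlap annotated exons. Capitals mark matches on either strand to GATAA (the GATA factor core), CAAGTG (an NKX2-5 type site), CATTCC (a TEAD type site), the CArG box of serum response factor and the MEF2 motif, and no printed matches overlap each other. The promoters are those of Myl7 (chr11:5898783-5899032, minus), Mybpc3 (chr2:91117894-91118143, plus), Tnnt2 (chr1:135836084-135836333, plus), Myh7 (chr14:54994627-54994876, minus) and Tnnc1 (chr14:31208062-31208311, plus), each written 5′ to 3′ in the direction of the gene.
Myl7: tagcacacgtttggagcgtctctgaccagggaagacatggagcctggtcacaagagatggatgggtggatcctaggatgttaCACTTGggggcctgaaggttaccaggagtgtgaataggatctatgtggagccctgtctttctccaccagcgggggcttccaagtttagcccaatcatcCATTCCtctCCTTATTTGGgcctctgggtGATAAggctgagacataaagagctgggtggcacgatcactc
Mybpc3: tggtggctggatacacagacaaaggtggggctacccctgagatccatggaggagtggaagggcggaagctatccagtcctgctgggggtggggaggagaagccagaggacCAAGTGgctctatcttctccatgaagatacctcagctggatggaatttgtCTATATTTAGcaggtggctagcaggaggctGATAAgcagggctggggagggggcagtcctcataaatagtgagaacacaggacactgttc
Tnnt2: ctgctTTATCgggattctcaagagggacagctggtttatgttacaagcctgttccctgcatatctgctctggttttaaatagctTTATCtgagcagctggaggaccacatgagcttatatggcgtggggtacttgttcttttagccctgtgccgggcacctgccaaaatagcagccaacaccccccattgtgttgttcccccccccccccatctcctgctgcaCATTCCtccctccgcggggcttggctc
Myh7: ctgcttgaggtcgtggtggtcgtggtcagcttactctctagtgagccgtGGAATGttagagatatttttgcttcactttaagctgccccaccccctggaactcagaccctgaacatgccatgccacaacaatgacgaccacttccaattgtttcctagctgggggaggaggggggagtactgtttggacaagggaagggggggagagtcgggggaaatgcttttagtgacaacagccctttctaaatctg
Tnnc1: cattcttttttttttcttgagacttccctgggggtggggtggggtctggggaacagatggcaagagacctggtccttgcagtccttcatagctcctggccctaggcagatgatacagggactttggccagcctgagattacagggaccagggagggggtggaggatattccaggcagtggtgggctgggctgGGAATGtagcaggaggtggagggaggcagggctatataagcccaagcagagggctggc

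In the Myl7 window a CATTCC match lies 70 to 65 bases before the start, a CArG box 61 to 52 bases before it and a GATAA match 41 to 37 bases before it. In the Mybpc3 window the MEF2 motif lies 90 to 81 bases before the start and a GATAA match 60 to 56 bases before it. Over the 9 members, GATAA was found in 3 windows (Myl7, Tnnt2 and Mybpc3) and in 22.6% of 32817 promoter windows of the same length. CATTCC was found in 5 (Myh6, Myh7, Myl7, Tnnt2 and Tnnc1) against 12.6% of all windows, and CAAGTG in 2 (Myl7 and Mybpc3) against 11.6%. The CArG box, which Actc1 and Myl7 carry, was in 1.47% of all windows, and the MEF2 motif in 1.69%. TATAAA was in 0 members and in 12.4% of windows. These are matches of letters only, and no binding was measured.

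At E9.0 all 9 contractile genes were higher in PA2 than in PA1, by 3.31 to 4.60 on the log2(CPM + 1) scale in wildtype and by 3.02 to 4.41 in the libraries labelled Hoxa2-/-. The scale adds a pseudocount of 1, so it understates the change of genes near 0. The question behind this comparison is how the arches differ at each stage. Over all 18428 genes tested, 10.2% were called higher in PA2 by the same threshold (limma, Benjamini-Hochberg adjusted p under 0.05) in wildtype and 12.1% under the Hoxa2-/- label. The median difference of the 9 members was 3.80 in wildtype and 3.56 under the Hoxa2-/- label, beside medians of -0.01 over all genes in both.

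**Figure D1:**
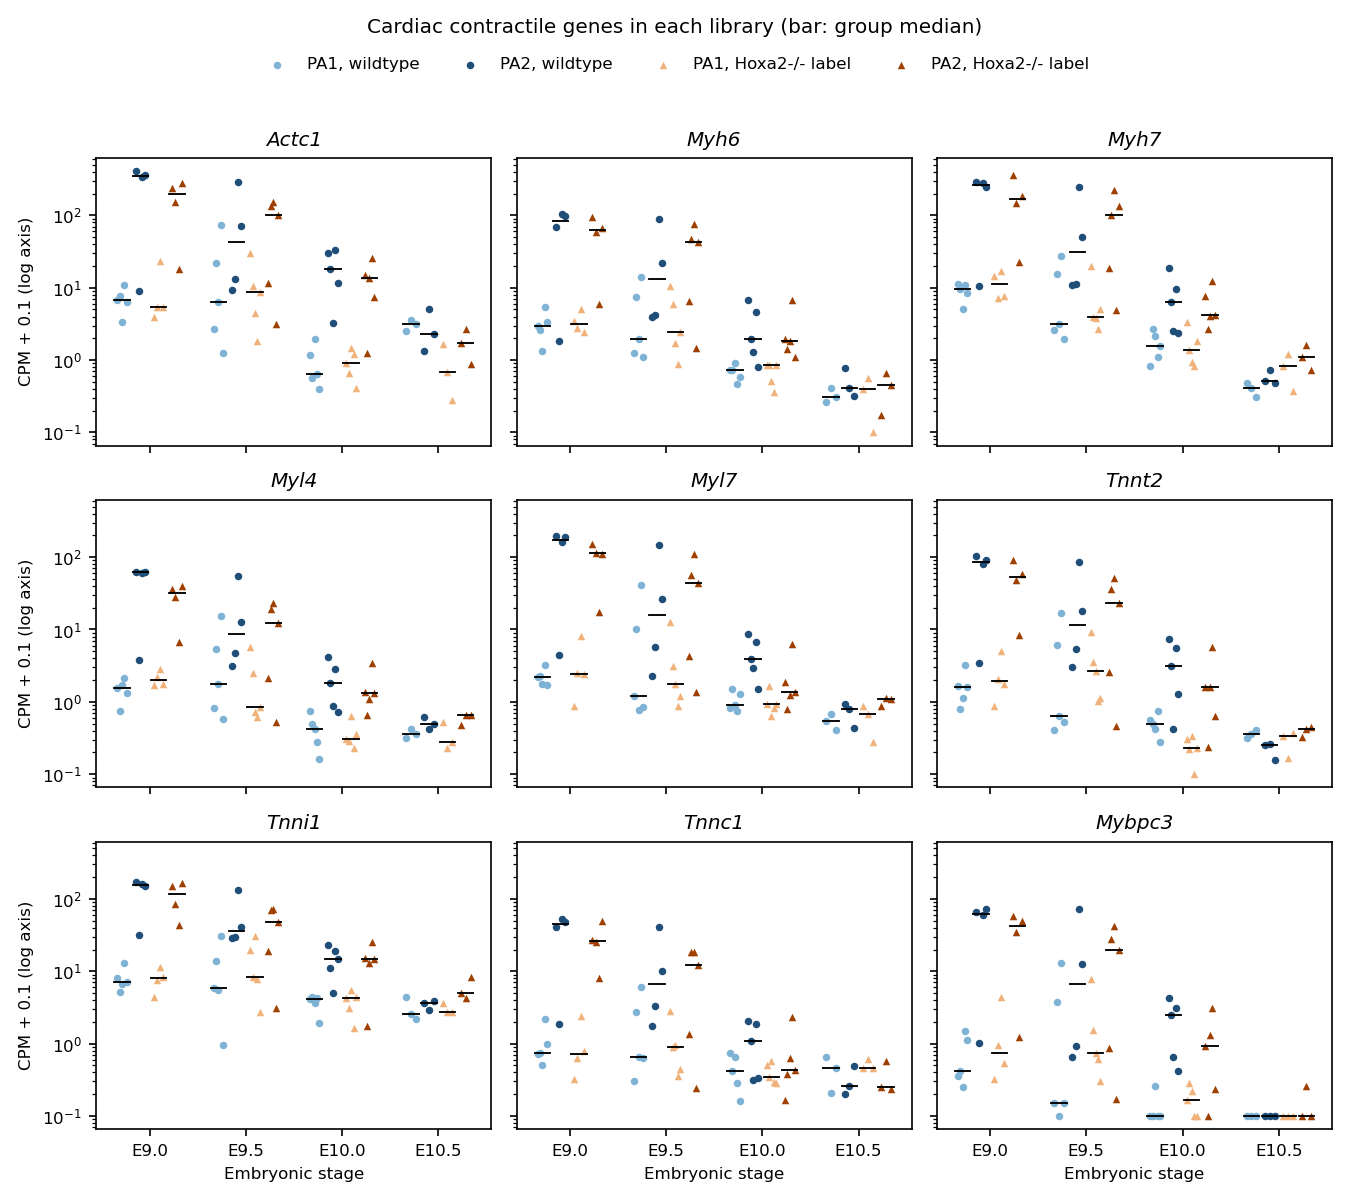
CPM plus 0.1 on a log axis for each of the 9 genes in each of the 68 libraries, by stage, arch and label, 1 point a library, with a bar at the median of each group. At E9.0 most PA2 libraries lie far above the PA1 libraries, at E9.5 the points of a group spread widely, and at E10.5 the arches lie at similar low levels.

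Of the thick filament genes, Myh7, the slow (beta) myosin heavy chain, stood at 246, 279 and 289 CPM in wildtype PA2 replicates 5, 4 and 1 at E9.0 and at 10.4 CPM in replicate 2. In wildtype PA1 it was at 4.97, 8.39, 9.65, 10.8 and 11.2 CPM. Thus 3 of 4 PA2 libraries were far above every PA1 library, and replicate 2 lay within the PA1 range. The difference was 3.66 ± 0.80 (SE; n = 4 and 5; adjusted p = 0.00055). Myh6, the alpha heavy chain of heart muscle, was at 69.6, 98.1 and 104.99 CPM in the same 3 PA2 libraries, at 1.76 CPM in replicate 2, and at 1.23 to 5.25 CPM in PA1 (difference 3.31 ± 0.78, adjusted p = 0.0015). Mybpc3, cardiac myosin binding protein C, was at 59.2, 66.1 and 71.7 CPM against 0.909 CPM in replicate 2 and 0.154 to 1.38 CPM in PA1 (4.13 ± 0.92, adjusted p = 7e-04). Replicate 2 overlapped PA1 for all 3 of these genes.

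For the light chains replicate 2 was again the lowest PA2 library. Myl7, the atrial regulatory light chain that the whole early heart tube expresses, was at 160, 189 and 198 CPM in wildtype PA2 replicates 4, 5 and 1 and at 4.33 CPM in replicate 2. In PA1 it was at 1.62, 1.69, 2.14, 2.17 and 3.17 CPM, so the arches did not overlap for this gene (4.60 ± 0.88, adjusted p = 9.9e-05). Myl4, the atrial essential light chain, was at 59.9, 62.9 and 62.9 CPM and at 3.63 CPM in replicate 2, against 0.651 to 2.07 CPM in PA1 (3.80 ± 0.64, adjusted p = 1.1e-05). Both light chains were therefore higher in every PA2 library than in any PA1 library.

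Among thin filament genes, Actc1, the cardiac alpha actin, was at 341, 361 and 409 CPM in wildtype PA2 replicates 4, 5 and 1 and at 9.03 CPM in replicate 2. In PA1 it was at 3.28, 6.33, 6.74, 7.54 and 10.8 CPM, a range that holds replicate 2 of PA2 (4.31 ± 0.94, adjusted p = 0.00058). Tnnt2, the tropomyosin-binding troponin T of heart, was at 79.4, 92.3 and 102 CPM and at 3.37 CPM in replicate 2, against 0.705 to 3.17 CPM in PA1 (4.11 ± 0.80, adjusted p = 0.00011). Here replicate 2 lay just above the highest PA1 library. Tnnc1, the calcium-binding troponin C of heart and slow muscle, was at 40.4, 48.5 and 52.7 CPM and at 1.76 CPM in replicate 2, against 0.41 to 2.07 CPM in PA1 (3.66 ± 0.64, adjusted p = 2e-05). Tnni1, the slow skeletal troponin I that the embryonic heart uses, was at 150, 163 and 170 CPM, at 31.4 CPM in replicate 2, and at 5.04, 6.51, 7.02, 7.94 and 13 CPM in PA1 (3.66 ± 0.63, adjusted p = 1.5e-05). For Tnni1 replicate 2 was clearly above PA1, although at the low end of its own group.

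Without wildtype PA2 replicate 2, the E9.0 differences of the 9 genes ran from 4.24 to 5.87, with a median of 4.81, and all 9 passed the test. That library, rich in erythroid RNA, was also low in smooth muscle genes, whose sum was 172 CPM in it against 751 to 966 CPM in the other 3, and in cardiac transcription factors, at 148 CPM against 269 to 362 CPM. The 6 genes of the second heart field summed to 204 CPM in it, between the 83.2 to 113 CPM of PA1 and the 260 to 290 CPM of the other PA2 libraries. The part of these markers in the low contractile values was not tested.

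The libraries labelled Hoxa2-/- showed the same difference at E9.0. Actc1 was at 152, 242 and 279 CPM in PA2 replicates 2, 1 and 4 and at 18.2 CPM in replicate 3, against 3.82, 5.3, 5.3 and 23.0 CPM in PA1 (3.85 ± 0.99, adjusted p = 0.0029). Myh7 was at 146, 185 and 360 CPM and at 22.9 CPM in replicate 3, against 7.02, 7.57, 14.5 and 16.9 CPM (3.40 ± 0.84, adjusted p = 0.0019). The embryo of replicate 3 thus had the lowest PA2 value and the highest PA1 value for both genes. Myl7 was at 112, 115 and 153 CPM and at 17.1 CPM in replicate 3, against 0.763 to 8.07 CPM in PA1 (4.41 ± 0.93, adjusted p = 0.00032). Tnni1 was at 86.0, 150 and 168 CPM and at 43.6 CPM in replicate 3, against 4.35 to 11.2 CPM (3.56 ± 0.66, adjusted p = 5.2e-05). Mybpc3 was at 34.9, 49.1 and 58.4 CPM, and its 1.14 CPM in PA2 replicate 3 lay below the 4.28 CPM of PA1 from the same embryo. Without PA2 replicate 3, the library with 439 CPM of yolk sac genes, the 9 differences ran from 3.57 to 5.11, and all 9 passed. The part of the yolk sac transcripts in the low values of that library was not tested.

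Levels can be compared between genes only per length. Per kilobase of the longest protein-coding transcript, wildtype PA2 at E9.0 held 233 ± 153 CPM of Myl7 (SD, n = 4), 190 ± 124 of Actc1 and 112 ± 56.9 of Tnni1. Next came Tnnt2 at 57.7 ± 37.4, Myl4 at 50.2 ± 30.9, Tnnc1 at 49.7 ± 32.3 and Myh7 at 33.1 ± 21.1 CPM per kilobase. Mybpc3, at 11.9 ± 7.87, and Myh6, at 11.2 ± 7.71, were lowest. Neighbours in this order differed by less than the larger of their SDs, except Myh7 and Mybpc3. All 9 genes were measured in the same 4 libraries, so these SDs are not the error of a difference between genes. The medians of the group gave the same order, from 296 CPM per kilobase for Myl7 to 13.7 for Myh6. In replicate 2 the order differed, with Tnni1 at 27.3 CPM per kilobase above Myl7 at 7.34 and Actc1 at 6.13.

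**Figure D2:**
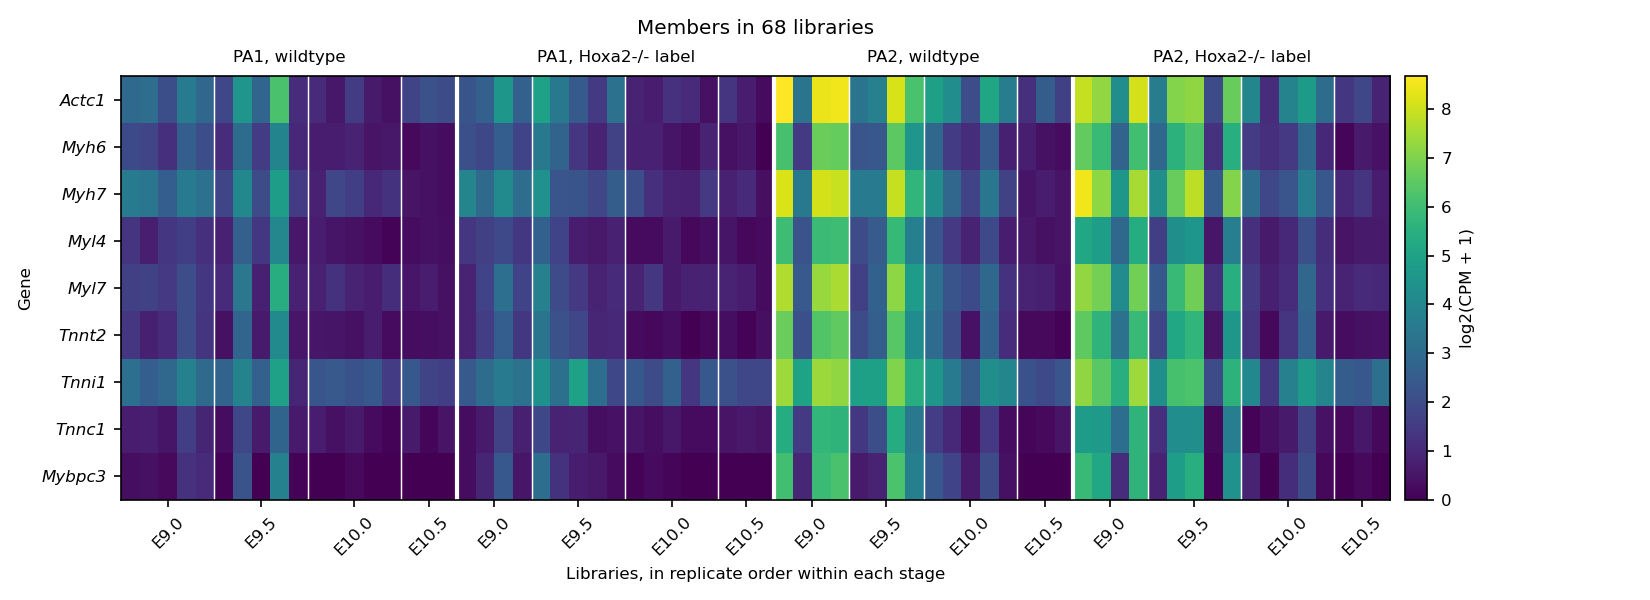
log2(CPM + 1) of the 9 genes (vertical axis) in the 68 libraries (horizontal axis, grouped by arch, label and stage), as colour. PA2 at E9.0 is the brightest block in both labels, single libraries at E9.5 match it, and E10.5 is dark in both arches.

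At E9.5 the PA2 libraries of a group lay at widely different levels. In wildtype PA2, Actc1 was at 9.2, 12.9, 71.3 and 287 CPM in replicates 1, 2, 5 and 3. In wildtype PA1 it was at 1.16, 2.6, 6.15, 22.2 and 72.7 CPM in replicates 5, 1, 3, 2 and 4. PA2 replicate 3 was near the E9.0 level, replicates 1 and 2 were below 2 of the PA1 libraries, and the arches overlapped. The difference was 2.06 ± 0.94 (adjusted p = 0.097). For Myh7 the PA2 libraries stood at 10.7, 11.2, 50.9 and 243 CPM and the PA1 libraries at 1.85, 2.5, 3.01, 15.6 and 27.2 CPM (2.36 ± 0.80, adjusted p = 0.023). Tnni1 was at 29.2, 29.9, 41.2 and 131 CPM in PA2 and at 0.847, 5.4, 5.77, 13.6 and 30.4 CPM in PA1 (2.54 ± 0.63, adjusted p = 0.0021). The highest PA1 library for all 3 genes was replicate 4, an embryo with no PA2 library.

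In all, 4 of 9 members (Myh7, Tnnt2, Tnni1 and Tnnc1) were called higher in wildtype PA2 at E9.5, where 12.7% of all genes were. All 9 differences lay above 0, from 1.63 to 2.54. With the embryo as a block, which compares PA1 and PA2 of the same embryo, 8 of 9 passed. That fit held only embryos with both arches, so it also left out PA1 replicate 4. With the compared groups alone in the fit 1 passed, with edgeR 8 and with DESeq2 6. The count also rested on single libraries: it was 8 without PA1 replicate 4 or without PA2 replicate 1, and 1 without PA1 replicate 1, 3 or 5 or PA2 replicate 3 or 5. Smooth muscle genes were high in the same libraries, with 763 CPM in PA2 replicate 3 and 376 CPM in replicate 5 against 165 and 179 CPM in replicates 1 and 2. In PA1 they summed to 278 CPM in replicate 4 against 54.2 to 163 CPM in the others. Their part in the contractile values was not tested.

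In the libraries labelled Hoxa2-/- at E9.5, Myh7 was at 4.81, 18.5, 100, 134 and 226 CPM in PA2 replicates 4, 1, 2, 5 and 3. In PA1 it was at 2.61, 3.73, 3.88, 4.96 and 20 CPM (3.01 ± 0.75, adjusted p = 0.0049). Actc1 was at 3.02, 11.4, 99.5, 133 and 151 CPM in PA2 and at 1.76, 4.44, 8.76, 10.4 and 30.0 CPM in PA1 (2.19 ± 0.89, adjusted p = 0.11). For both genes 3 PA2 libraries were above every PA1 library and PA2 replicates 1 and 4 were inside the PA1 range. Myh6 (2.24 ± 0.74, adjusted p = 0.041), Myl7 (2.52 ± 0.83, adjusted p = 0.041) and Tnnc1 (1.85 ± 0.60, adjusted p = 0.038) passed as well, so that 4 of 9 members were called higher where 6.12% of all genes were. With the compared groups alone in the fit the count was 0, with the embryo block 5, and with edgeR and DESeq2 7. It was 9 without PA2 replicate 4. It was 1 without PA1 replicate 3, 4 or 5 or without PA2 replicate 2, 3 or 5, and 2 without PA1 replicate 2. PA2 replicate 3 was the only library of these groups rich in yolk sac genes (37.9 CPM).

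**Figure D3:**
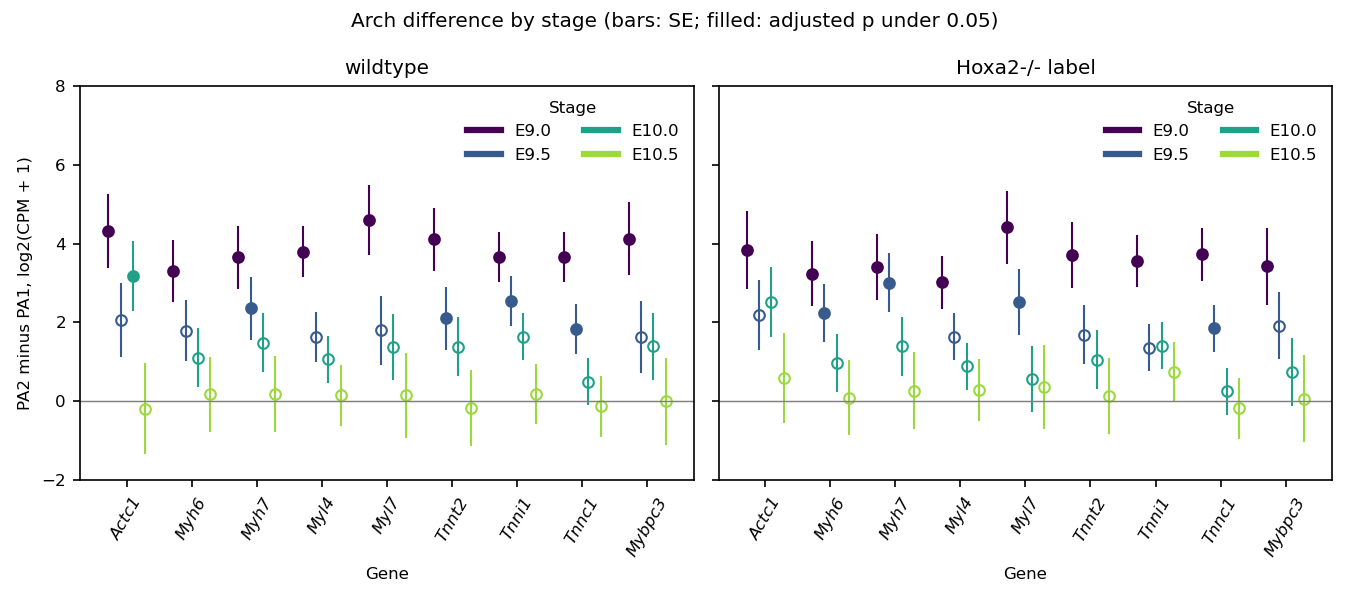
Difference between PA2 and PA1 on the log2(CPM + 1) scale with its standard error (vertical) for each of the 9 genes (horizontal), by label and stage. Filled points passed an adjusted p of 0.05 and open points did not. The points lie closer to 0 at E10.5 than at E9.0, but Actc1 was farther from 0 at E10.0 than at E9.5 in both labels.

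At E10.0 the levels were lower. Actc1 was at 3.17, 11.7, 18.3, 29.8 and 33.5 CPM in wildtype PA2 and at 0.3, 0.471, 0.547, 1.09 and 1.84 CPM in wildtype PA1, with no overlap. The difference of 3.18 ± 0.89 passed (adjusted p = 0.018), and Actc1 was the only one of 9 members called higher where 4.51% of all genes were. Tnni1 was at 4.91, 10.9, 14.8, 18.7 and 23.3 CPM in PA2 and at 1.86 to 4.32 CPM in PA1, also with no overlap (1.64 ± 0.59, adjusted p = 0.093). The other 7 differences ran from 0.50 for Tnnc1 to 1.49 for Myh7. The count was 2 with the embryo block and 2 without PA2 replicate 3, and it was 0 without PA2 replicate 1 or 4. DESeq2 on the recovered reads called 6, and the fit with the compared groups alone called 5.

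Under the Hoxa2-/- label at E10.0, Actc1 was at 1.17, 7.39, 13.7, 15.0 and 25.5 CPM in PA2 and at 0.317 to 1.38 CPM in PA1. Its difference was 2.51 ± 0.89 (adjusted p = 0.095), and 0 of 9 members passed with limma, where 3.13% of all genes were called higher. At an unadjusted p under 0.05 there were 2, edgeR called 1, DESeq2 4 and the fit with the compared groups alone 3. All 9 differences lay above 0. PA2 replicate 4 was the highest library for each member, with a summed level of 90 CPM against 8.39 to 45.4 CPM in the others. It held 261 CPM of yolk sac genes against 3.1 to 4.76 CPM in the others, and the part of those transcripts in the result was not tested.

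At E10.5 no member passed the test between the arches. Actc1 was at 1.24, 2.16 and 4.9 CPM in wildtype PA2 and at 2.45, 3.07 and 3.43 CPM in PA1. Tnni1 was at 2.79, 3.52 and 3.83 CPM in PA2 and at 2.08, 2.43 and 4.3 CPM in PA1. The ranges overlapped for both. Wildtype Tnnt2 was lower in PA2 with no overlap, at 0.0554 to 0.158 CPM against 0.218 to 0.312 CPM in PA1, values near the limit of 3 reads. Tnni1 under the Hoxa2-/- label was at 4.16, 4.96 and 8.13 CPM in PA2 and at 2.61, 2.63 and 3.49 CPM in PA1, with no overlap. The summed level of the 9 members did not overlap there either, at 9.15 to 11.9 CPM in PA2 and 4.08 to 7.88 CPM in PA1. Wildtype differences ran from -0.19 to 0.19 with SE of 0.76 to 1.15, and those under the Hoxa2-/- label from -0.18 to 0.75 with the same SE. With limma 0 of 9 members passed in either label, at an unadjusted p under 0.05 also 0, and edgeR and DESeq2 called 0. Among all genes 0.868% and 0.982% were called higher. With standard errors of this width a difference of about 1 on the log2 scale would not have passed, and clearly larger ones could also have failed. At E10.0 under the Hoxa2-/- label, Actc1 did not pass with limma at 2.51 ± 0.89 (adjusted p = 0.095). The standard errors rest on a spread per gene shared by all 16 groups, so they do not measure the spread at E10.5 alone. Mybpc3, at 0 reads in all wildtype libraries of E10.5, still had an SE of 1.11.

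The 33 embryos with both arches allow the arches to be compared within an embryo. The summed CPM of the 9 members was higher in PA2 than in PA1 in 29 of 33. At E9.0 this held in 8 of 8 embryos, with a median PA2 to PA1 ratio of 29.2 and a range of 1.68 to 42.1. At E9.5 it held in 6 of 9 (median 12.9, range 0.561 to 58.0), at E10.0 in 10 of 10 (median 4.45, range 1.06 to 19.1) and at E10.5 in 5 of 6 (median 1.22, range 0.855 to 2.92), 3 of 3 under the Hoxa2-/- label. The 4 exceptions were wildtype replicate 2 at E9.5, with 86.6 CPM in PA1 and 77.5 CPM in PA2, the Hoxa2-/- labelled replicates 1 and 4 at E9.5, with 118 and 66.1 CPM and with 15.9 and 14.5 CPM, and wildtype replicate 1 at E10.5, with 8.71 and 7.45 CPM. By gene, PA2 was higher in 31 of 33 embryos for Myh7, which was higher in all 6 at E10.5, 29 for Myl7 and Tnni1, 28 for Actc1, Myh6 and Myl4, 26 for Tnnt2, 25 for Tnnc1 and 23 for Mybpc3. Mybpc3 was lower in PA2 in 5 embryos, and both arches of the rest had 0 reads. At E10.5 PA2 was lower in all 3 wildtype embryos for Tnnt2 and in all 3 under the Hoxa2-/- label for Tnnc1. The wildtype PA1 library without a PA2 partner at E9.5 held 237 CPM, the highest sum of any PA1 library.

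**Figure D4:**
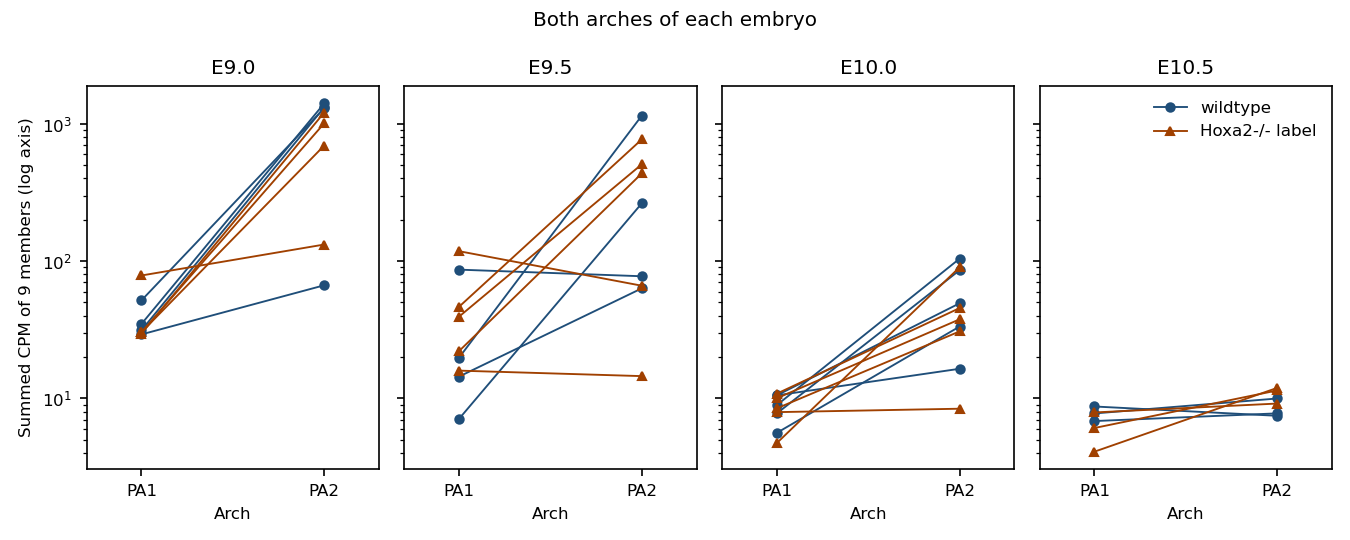
Summed CPM of the 9 genes on a log axis in PA1 and PA2, with a line joining the arches of each of the 33 embryos, by stage and label. At E9.0 the lines of all 8 embryos rise from PA1 to PA2, 6 of them steeply, and at E10.5 the lines are nearly flat.

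Across the stages all 9 members fell in PA2. In wildtype PA2 the Actc1 mean was 280 ± 183 CPM (SD, n = 4) at the earliest stage, then 95 ± 131 (n = 4) and 19.3 ± 12.5 (n = 5), and 2.77 ± 1.9 (n = 3) at E10.5. Myl7 went through 138 ± 90.4, 45.6 ± 69.3, 4.65 ± 2.91 and 0.615 ± 0.255 CPM, and Tnni1 through 129 ± 65.4, 57.8 ± 49.1, 14.5 ± 7.07 and 3.38 ± 0.531 CPM. At E9.5 the SD was above the mean for Actc1 and Myl7. From E9.0 to E10.5, Actc1 fell by 5.43 ± 1.07 on the log2 scale in wildtype PA2 (adjusted p = 5e-05), Myl7 fell by 5.56 ± 1.00 (adjusted p = 1.1e-05) and Tnni1 fell by 4.64 ± 0.71 (adjusted p = 4.9e-07). All 9 passed in wildtype PA2, with changes of -6.38 for Myh7 to -4.28 for Tnnc1, where 19.4% of all genes were called lower. All 9 also passed under the Hoxa2-/- label, with changes of -5.94 for Myh7 to -3.93 for Tnni1, where 15.1% were.

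Mybpc3 had 0 reads in all 3 wildtype PA2 libraries at E10.5, where 3 reads would be 0.155 to 0.166 CPM. Set against the mean of these limits per library, 0.16 CPM, its level was at least 309-fold lower than the E9.0 mean of 49.5 CPM. The E9.0 libraries behind that mean ran from 0.909 to 71.7 CPM. Mybpc3 was also at 0 reads in all 3 wildtype PA1 libraries at E10.5, at least 3.96-fold lower than the E9.0 mean of 0.63 CPM. That mean covers libraries from 0.154 CPM, near the limit of 3 reads, to 1.38 CPM. The PA1 change of -0.64 ± 1.00 did not pass with limma (adjusted p = 0.64). Across the series Mybpc3 had 0 reads in 19 libraries, while Actc1, Myh7, Myl4, Myl7, Tnni1 and Tnnc1 had reads in all 68. Tnni1 reached 1 CPM in 67 libraries, Actc1 in 59, Myh7 in 55, Myl7 in 45, Myh6 in 44, Tnnt2 in 36, Myl4 in 35, and Tnnc1 and Mybpc3 in 24 each.

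From E9.0 to E10.5 the change in PA1 was smaller in size, although its difference from that in PA2 was not tested. The pseudocount of 1 limits the fall of genes that start low, as Tnnc1 (0.928 CPM) and Mybpc3 (0.63 CPM) did in wildtype PA1. Actc1 in wildtype PA1 was at 0.3 to 1.84 CPM at E10.0 and at 2.45 to 3.43 CPM at E10.5, a step not tested. Under the Hoxa2-/- label these ranges were 0.317 to 1.38 and 0.181 to 1.56 CPM. Myh7 in wildtype PA1 went from 4.97 to 11.2 CPM at E9.0 to 0.208, 0.316 and 0.381 CPM at E10.5, with no overlap, and fell by 2.90 ± 0.87 (adjusted p = 0.0052). It was the only member of 9 called in wildtype PA1, where 21.5% of all genes were called lower, and the other 8 changes ran from -1.64 for Myh6 to -0.48 for Tnnc1. Under the Hoxa2-/- label Myh7 in PA1 went from 7.02 to 16.9 CPM to 0.272, 0.722 and 1.11 CPM. It fell by 2.82 ± 0.91 (adjusted p = 0.013) and was again the only member called, where 16.5% of all genes were called lower. That call was lost without the PA1 replicate 3 of E10.5. DESeq2 on the recovered reads called 5 members in wildtype PA1 and 7 under the Hoxa2-/- label, and the fit with the compared groups alone called 8 and 7.

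Between E9.0 and E9.5 the wildtype PA2 changes ran from -2.15 for Myl7 to -1.18 for Tnni1 and 0 of 9 passed with limma, where 2.63% of all genes were called lower. At an unadjusted p under 0.05 there were 4, and edgeR and DESeq2 called 0. Without PA2 replicate 2 of E9.0 the count was 8, and without PA2 replicate 3 of E9.5 it was 3. Under the Hoxa2-/- label Tnni1 fell by 1.78 ± 0.63 (adjusted p = 0.041) and Tnnc1 fell by 1.86 ± 0.64 (adjusted p = 0.036), 2 of 9 where 6.94% of all genes were called lower. Here edgeR, DESeq2 and the fit with the compared groups alone called 0, and the count was 5 without PA2 replicate 3 of E9.5. In PA1 the changes over the same interval ran from -0.44 to 0.65 in wildtype and from -0.89 to 0.43 under the Hoxa2-/- label. In PA1, 0 of 9 passed with limma, with edgeR, with DESeq2 and at an unadjusted p under 0.05, where limma called 2.97% and 0.993% of all genes lower.

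The genotype label was compared within each arch and stage. In PA2 at E9.0, Actc1 was at 9.03, 341, 361 and 409 CPM in wildtype and at 18.2, 152, 242 and 279 CPM in the libraries labelled Hoxa2-/-, and the ranges overlapped. Over the 9 members the difference ran from -0.43 to 0.09 in PA2 at E9.0 (SE 0.66 to 0.99), from -0.71 to 0.48 at E9.5, from -0.86 to -0.13 at E10.0 and from -0.45 to 0.59 at E10.5. In PA1 it ran from -0.04 to 0.39, from -0.57 to 0.47, from -0.29 to 0.06 and from -1.23 to 0.36 at the 4 stages. The -1.23 (SE 1.15) was Actc1 in PA1 at E10.5. It was at 2.45, 3.07 and 3.43 CPM in wildtype and at 0.181, 0.588 and 1.56 CPM under the Hoxa2-/- label, with no overlap. With limma 0 of 9 members passed in any of the 8 comparisons, and neither did any at an unadjusted p under 0.05, by edgeR or by DESeq2, while the fit with the compared groups alone called 1 in PA1 at E10.5. Among all genes, 2.08%, 23.6%, 0% and 3.05% passed in PA1 and 14%, 4.48%, 0.0814% and 10.3% in PA2 over the 4 stages. The standard errors, up to 1.15, leave room for differences of more than 1 on the log2 scale. They rest on a spread shared by all 16 groups, not on that of the compared libraries alone.

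The difference in the label effect between the arches was tested as an interaction within each stage. It ran from -0.78 to 0.07 at E9.0, from -1.19 to 0.73 at E9.5, from -0.81 to -0.09 at E10.0 and from -0.09 to 0.78 at E10.5, with SE of 0.84 to 1.62. Again 0 of 9 members passed with limma, edgeR, DESeq2 or at an unadjusted p under 0.05. Of all genes 0%, 0.0109%, 0.0163% and 0.038% passed.

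The 9 members followed each other closely across libraries. After each library had its group mean subtracted, Pearson's r between members, over 68 libraries from 35 embryos that differ in depth, ran from 0.75 to 0.97 over the 36 pairs, with a median of 0.94. Tnni1 was the member least like the others, with a median r of 0.78. In wildtype PA2 replicate 2 at E9.0 Tnni1 made up 47.2% of the reads of the 9 members (588 of 1247 reads, 95% Clopper-Pearson interval 44.4% to 50%, counting error only), against 11.4%, 12.1% and 12.6% in the other 3 libraries of the group. At E10.5 its median share in the 4 groups was 31.3% to 54.2%. In those libraries a larger share of the members' reads came from Tnni1 than in the PA2 libraries with high sums.

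Myh6 and Myh7 can be read as a ratio of heavy chains, with care, because their sequences share 1381 words of 50 bases, 20.2% of Myh6 and 15.6% of Myh7, and the authors' counting could split such reads. In the 46 libraries with at least 40 reads of the pair, Myh6 made up 14.5% to 60.2% of their reads, with a median of 26.6%. In PA2 at E9.0 it was 14.5% to 28.7%, in PA2 at E9.5 22.1% to 31.7% and in PA2 at E10.0 19.3% to 35.4%. The 60.2% (95% Clopper-Pearson interval 50.9% to 68.9%, counting error only) was PA1 replicate 2 at E9.5 under the Hoxa2-/- label. Antisense genes overlap exons of Myh7 (Mhrt, Gm29015 and Gm31251) and Myh6 (Gm49130). They are not analysed here, and without strand their reads cannot be told apart from those of the heavy chains. Tnnc1 lies across from Nisch on the opposite strand without sharing exon bases.

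Other sarcomere genes moved with the members at E9.0. Of 19 tested, 17 were higher in wildtype PA2 than PA1 and 0 lower. Unc45b, a myosin chaperone, was at 67.3 ± 41.1 CPM in PA2 and 1.29 ± 0.274 CPM in PA1 (SD, n = 4 and 5; difference 4.38 ± 0.74, adjusted p = 1.2e-05). Smyd1, a muscle methyltransferase that binds it, was at 58.1 ± 41.5 and 1.82 ± 0.877 CPM (3.93 ± 0.69, adjusted p = 2.2e-05). Ankrd1, a titin-binding stress protein, was at 52.3 ± 34.1 and 1.59 ± 0.93 CPM (3.62 ± 0.82, adjusted p = 0.00097). Under the Hoxa2-/- label 16 of 19 were higher and 1 lower. Between E9.0 and E10.5 in wildtype PA2, 17 of 19 fell and 0 rose, Smyd1 by the most (-5.16 ± 0.78, adjusted p = 3.7e-07).

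Of 11 genes of excitation and calcium handling, 8 were higher in wildtype PA2 at E9.0 and 0 lower. Jph2, which couples membrane and calcium store, was at 10.4 ± 6.68 against 2.42 ± 0.79 CPM (1.51 ± 0.36, adjusted p = 0.0017), and Gja5, a gap junction gene of atria and arteries, at 29.7 ± 9.01 against 15.9 ± 4.27 CPM (0.85 ± 0.27, adjusted p = 0.021). Between E9.0 and E10.5 in wildtype PA2, 6 of 11 fell and 2 rose. The list therefore held genes that moved against the members, as with the calcium channel gene Cacna1c, which rose by 0.75 ± 0.25 (adjusted p = 0.015). The share of all genes that rose over this interval is not given here, nor for the next list.

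Cardiac transcription factors were higher in wildtype PA2 at E9.0 for 5 of 11, with 0 lower. Myocd, the cofactor of serum response factor, was at 19.7 ± 12.1 against 1.4 ± 0.465 CPM (2.84 ± 0.51, adjusted p = 2.9e-05), Gata5 at 46.4 ± 17.3 against 6.68 ± 1.89 CPM (2.58 ± 0.55, adjusted p = 0.00043) and Nkx2-5 at 16.4 ± 8.23 against 3.15 ± 0.617 CPM (1.89 ± 0.40, adjusted p = 0.00038). Between E9.0 and E10.5 in wildtype PA2, 8 of 11 fell and 1 rose, led by Gata5 (-5.01 ± 0.63, adjusted p = 3.7e-09). The list of the second heart field had 5 of 6 higher in wildtype PA2 at E9.0. Isl1, its defining transcription factor, was at 131 ± 30.7 against 29.3 ± 4.36 CPM (2.11 ± 0.17, adjusted p = 5e-15). In wildtype PA2, 5 of these 6 fell from E9.0 to E10.5, with Fgf8 at 33.5 ± 2.59 and then 4.81 ± 1.19 CPM (-2.59 ± 0.23, adjusted p = 8.2e-14).

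Other muscle was also measured. Smooth muscle genes were higher in wildtype PA2 at E9.0 for 5 of 7, with Acta2 at 456 ± 268 against 62.8 ± 49.5 CPM (2.67 ± 0.85, adjusted p = 0.021), and early heart muscle is known to express several of them. The list summed to 172 to 966 CPM in wildtype PA2 and 109 to 229 CPM in wildtype PA1. Skeletal myogenic genes were higher in 4 and lower in 2 of 14. That list summed to 84.9 to 112 CPM in PA2 and 109 to 148 CPM in PA1 and so did not move with the members.

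Of the lists for other cell types at E9.0 in wildtype, erythroid genes were higher in PA2 for 8 of 9, with sums of 3840 to 73800 CPM in PA2 and 1740 to 7540 CPM in PA1. The 73800 CPM was PA2 replicate 2 alone. The median of the PA2 sums, 5030 CPM, lay inside the PA1 range, and how far the erythroid calls rest on replicate 2 was not tested. Endothelial genes (6 tested) and yolk sac endoderm genes (8 tested) gave 0 calls with limma, and 2 and 0 genes at an unadjusted p under 0.05. Of 6 arch mesenchyme and neural crest genes, 5 were lower in PA2, with sums of 210 to 246 CPM against 387 to 453 CPM, and Prrx1, a mesenchyme factor, at 38.9 ± 8.06 against 97.5 ± 6.52 CPM (-1.33 ± 0.20, adjusted p = 2e-06). Of 5 epithelial genes 1 was higher and 1 lower. The share of all genes called lower in PA2 is not given here, so the counts of lower genes have no background beside them. The part of the listed cell types in the contractile differences was not tested.

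**Figure D5:**
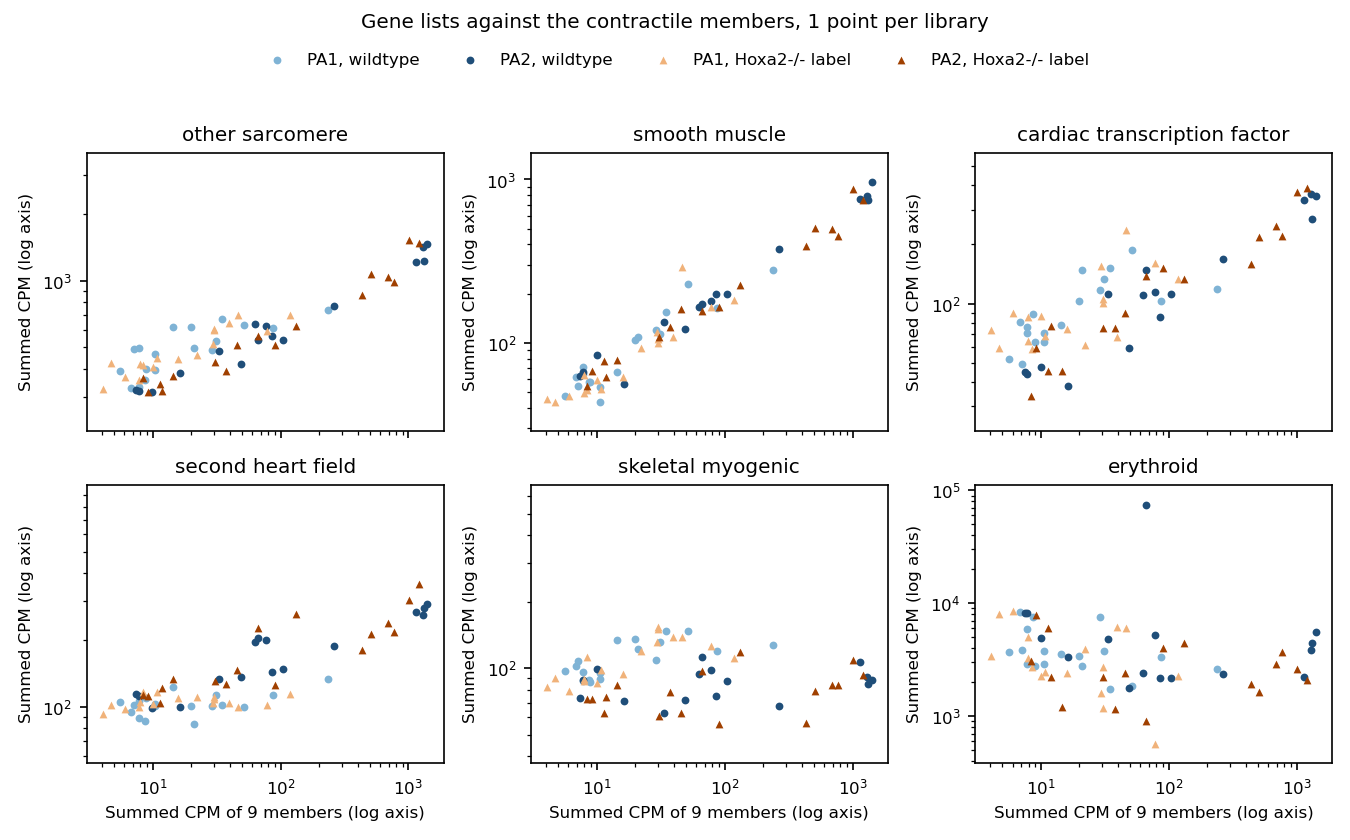
Summed CPM of other marker lists (vertical, log axis) against the summed CPM of the 9 contractile genes (horizontal, log axis), 1 point for each of the 68 libraries, coloured by arch and label. Other sarcomere and smooth muscle sums rise with the members at their high end, and skeletal myogenic and erythroid sums do not.

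Among genes with a mean of at least 2 CPM over the 68 libraries (Gm and Rik symbols left out), those most like the mean profile of the members, with group means subtracted, were Ldb3 (r = 0.97), Sh3bgr (0.96), Xirp1 (0.96), Hspb7 (0.95), Ttn (0.94), Ankrd1 (0.94), Cnn1 (0.94), Trim55 (0.94), Unc45b (0.93) and Actn2 (0.93). Ttn codes for titin, the elastic filament of the sarcomere, and Actn2 for the actinin of its Z-disc. Csrp3, a muscle LIM protein gene below that mean, had an r of 0.95. With a pseudocount of 0.25, 8 of the 10 remained among the top 10, and Cnn1 and Unc45b did not. Over the 16 group means the nearest genes were Sh3bgr, Myocd, Xirp1, Cnn1 and Ldb3, with r of 0.99 or more. By list, the median r with the member profile over libraries was 0.89 for other sarcomere genes (16 of 19 above 0.7), 0.79 for smooth muscle, 0.67 for cardiac transcription factors and 0.58 for excitation and calcium. For endothelial genes it was 0.51 (range 0.36 to 0.56 over 6 genes), for epithelial genes 0.48 and for chamber and endocardial signals 0.42. It was 0.22 for the second heart field, -0.07 for both yolk sac endoderm and arch mesenchyme, -0.09 for skeletal myogenic genes and -0.34 for erythroid genes. These correlations describe libraries that share embryos and preparation, and they carry no test.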

How the data were processed

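RNA of 68 pharyngeal arch samples was sequenced by the submitters from polyadenylated RNA with a low-input SMART-seq v4 and Nextera XT protocol, per the labels' protocols, which does not mark strand. Reads were processed with bcl2fastq 2.18, TopHat2 2.1.1 and R 3.3.2 against mm10, per the submitters' processing notes. The counting program, the annotation and the strand setting are not given in the sources used here. The table deposited by the authors holds a scaled signal per gene, close to CPM: columns sum to 926298 to 1051959, so libraries were scaled further before deposit. The deposited values were whole multiples of 1 read in 100% of cases within 0.01 reads, so each library's reads could be recovered. The design had assumed plain CPM. The test was kept, and the values are called CPM.

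Gene names and coordinates came from GENCODE M21 (21921 of 21948 identifiers had a symbol). The 10 members and the marker lists were chosen with earlier results of these data known. Besides the members, the genes named are up to 3 per list with the greatest change among those past the threshold with a mean of at least 5 CPM in a compared group, and the 10 most like the member profile. Tests used limma 3.58.1 (R 4.3.3) on log2(CPM + 1), with a mean for each of 16 groups, a trended prior and the 18428 genes at 1 CPM or more in at least 3 libraries. Tests were two-sided, with Benjamini-Hochberg adjustment over all genes and a threshold of 0.05. edgeR 4.0.16 (quasi-likelihood) and DESeq2 1.42.0 on the recovered read counts were alternatives.

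The series text states that both arches came from the same embryo, so shared numbers within a label and stage pair the arches. Same-numbered arches had a median correlation of 0.35 in their deviations from the group means over 33 pairs (30 above 0.1), against -0.12 over 116 pairs with other numbers. Replicates differed beyond sampling noise in all 116 pairs compared (chi-square per degree of freedom 5.84 to 95.9). Each replicate is described as a biological one, yet p-values measure only the spread between these samples. PCR reads carry no molecular identifiers, so intervals cover counting error only. A limit of 3 reads is 0.14 to 0.328 CPM.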

Additional observations from a re-analysis of the deposited data

Results flagged for a closer look

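In 23 of 108 combinations of a gene and a group of 4 or 5 libraries, the highest or lowest library stood apart by Dixon's criterion. Chance alone gives about 1 in 20 only where values are normally distributed. Here the criterion was applied to CPM without a log, so the rate by chance is not known. The 9 genes of a library are also not independent of each other.

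Wildtype PA2 replicate 2 at E9.0 was low for 4 members: Actc1 at 9.03 CPM (others 341 to 409), Myh7 at 10.4 CPM (246 to 289), Myl4 at 3.63 CPM (59.9 to 62.9) and Tnni1 at 31.4 CPM (150 to 170). It is the library with 73800 CPM of erythroid transcripts. At E9.5, wildtype PA2 replicate 3 was high for Myl7 at 148 CPM (others 2.15 to 26.4), Tnni1 at 131 CPM (29.2 to 41.2) and Mybpc3 at 73.1 CPM (0.56 to 12.4). Wildtype PA1 replicate 4 of that stage was high for Myl7 at 41.0 CPM (0.683 to 9.98) and Mybpc3 at 13 CPM (0 to 3.71).

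Under the Hoxa2-/- label, PA1 replicate 1 at E9.5 was high for Myh7 at 20 CPM (others 2.61 to 4.96), Myl7 at 12.7 CPM (0.783 to 3.01), Tnnc1 at 2.71 CPM (0.261 to 0.846) and Mybpc3 at 7.72 CPM (0.204 to 1.42). PA2 replicate 4 at E10.0 was high for Myh6 at 6.69 CPM (1.02 to 1.84), Myl4 at 3.38 CPM (0.55 to 1.29), Myl7 at 6.25 CPM (0.687 to 1.77), Tnnt2 at 5.66 CPM (0.137 to 1.51) and Tnnc1 at 2.21 CPM (0.068 to 0.529). PA1 replicate 3 at E9.0 was high for Actc1 at 23.0 CPM (3.82 to 5.3) and Mybpc3 at 4.28 CPM (0.229 to 0.861).

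The remaining 3 concern low levels: Tnnc1 at 2.07 CPM in wildtype PA1 replicate 4 at E9.0 (others 0.41 to 0.884), Myl7 at 1.57 CPM in Hoxa2-/- labelled PA1 replicate 2 at E10.0 (0.54 to 0.825), and Mybpc3 at 0.16 CPM in wildtype PA1 replicate 3 at E10.0 (all others at 0 reads).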

How the results depend on the processing

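No difference of a member reversed its sign where it had been called, and all 9 members passed under the other pseudocounts, filters, scaling, tools, blocks and left-out libraries for the fall in PA2 from E9.0 to E10.5 in both labels and for the arches at E9.0 in wildtype. For the arches at E9.0 under the Hoxa2-/- label the count was 8 when the fit held the compared groups alone. For the genotype label the count was 1 for PA1 at E10.5 with the compared groups alone, and 0 otherwise.

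The other counts moved, and the cause was not tested. For PA2 against PA1, the counts in wildtype at E9.5 (4 members), wildtype at E10.0 (1), Hoxa2-/- label at E9.5 (4) and Hoxa2-/- label at E10.0 (0) were 6, 6, 7 and 4 with DESeq2, 8, 2, 7 and 1 with edgeR, and 1, 5, 0 and 3 with the compared groups alone. A pseudocount of 5 gave 0 in wildtype at E10.0, and one of 0.25 gave 1 under the Hoxa2-/- label at E10.0. From E9.0 to E9.5 in PA2 under the Hoxa2-/- label the 2 calls became 0 with DESeq2, edgeR, the compared groups alone or a pseudocount of 0.25. From E9.0 to E10.5 in PA1 the single call (Myh7) became 5, 2, 8, 2 and 0 in wildtype with DESeq2, edgeR, the compared groups alone and pseudocounts of 0.25 and 5. Under the Hoxa2-/- label it became 7, 7, 4 and 0 with DESeq2, the compared groups alone and these pseudocounts. Without the 7 libraries rich in yolk sac transcripts, an alternative chosen after seeing the data, the counts were 2 for the arches in wildtype at E10.0, 1 under the Hoxa2-/- label at E9.5, and 5 for the fall from E9.0 to E9.5 in PA2 under that label.

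The fit with the embryo as replicate block held only the 33 embryos with both arches. With it the count for the arches was 8 in wildtype at E9.5, 2 in wildtype at E10.0 and 5 under the Hoxa2-/- label at E9.5. The block changed no other count of members. Numbers shared between the genotype labels had a median correlation of 0.04 over 32 pairs (14 above 0.1), and those shared between stages were not measured. Neither was taken to pair samples, and a block on these numbers lost 0 calls.

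Leaving out a library gave 1 to 8 members for the arches in wildtype at E9.5, 0 to 2 in wildtype at E10.0, 1 to 9 under the Hoxa2-/- label at E9.5 and 0 to 2 at E10.0. It gave 0 to 8 for E9.0 to E9.5 in wildtype PA2, 0 to 5 in PA2 under the Hoxa2-/- label and 0 to 1 for E9.0 to E10.5 in PA1 under that label. Of 398 such fits of called members, 47 lost the threshold. Depth limits Mybpc3, Tnnc1 and Tnnt2 most: 31, 14 and 13 libraries had 3 reads or fewer.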
